A study of Homo sapiens with 2 samples.

Results

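The 10 genes followed here act in the lipid droplet, in its lipolysis and in fatty acid oxidation, or encode the peroxisome proliferator-activated receptors (PPARs). They were measured in HT-29 cells, a human colorectal adenocarcinoma line, grown as monolayer or as spheroids. The rule takes them by name and reads no signal, but the genes were chosen with earlier results of these data known. All 30 probe sets that the platform annotation assigns to them, of 54675 on the array, were taken. Each of the 30 is assigned to 1 gene only. Monolayer cells were kept on tissue culture plates in DMEM/F-12 with 10% fetal bovine serum. For the spheroids, cells of the same line were moved to low adhesion plates and to DMEM:F12 stem cell media that hold epidermal growth factor, fibroblast growth factor and B27 supplement, without serum in the description, and harvested on day 5. Growth form and medium therefore cannot be told apart. Both media held the same antibiotic mix, and no drug or genetic change was applied. The study used spheroids as cultures enriched in cancer stem cells and monolayer as their control.

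RNA of each condition was hybridised to 1 Human Genome U133 Plus 2.0 array, and a MAS5 signal, an intensity on a linear scale, was deposited for each probe set. With 1 array per condition no difference has a replicate check and no test was run. The number of arrays limits the precision. A floor of 62.7, which is the middle of the signals on both arrays, replaced any lower signal, and differences are log2 of the spheroid over the monolayer signal. A gene is represented by its brightest probe set, and a gene with 1 array under the floor has a bound only. Probe sets of 1 gene, where above the floor on both arrays, differed in log2 difference with an SD of 0.41 over 5506 genes. This SD is the measure of spread used here and holds no culture variation. A difference past it is not thereby beyond noise. Signals of different probe sets are not levels that can be ranked against each other. Since cultures were measured in bulk, fewer cells of a type and less RNA per cell cannot be told apart. The 18 probe sets of the hybridisation spike-ins all gave less signal for the spheroids (mean log2 difference -0.25), so scaling to them shifts the median of all genes from -0.05 to 0.18. This scaling adds the same amount to nearly every difference, so small differences below 0 can turn above it.

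The labelled cell type was checked against markers. EPCAM, the epithelial adhesion molecule, gave 21151 in monolayer and 22299 in spheroids, and KRT8, KRT18, KRT19 and CDH1 were also above the floor on both arrays. The intestinal genes CDX1 and CDH17 were under the floor on both, CDX2 and CEACAM5 were above it in spheroids only, and VIL1 in monolayer only. Adipocyte markers, which could bring droplet genes with them, were under the floor on both arrays for 7 of 8 genes, ADIPOQ, LEP and PLIN1 among them, and their summed signal was 331.6 in monolayer and 332.9 in spheroids. All 6 macrophage markers with a probe set of their own and the hepatocyte gene ALB were under the floor on both arrays. Over the whole hepatocyte list, 4 of 8 genes were above the floor on at least 1 array and the summed signal was 500.7 and 413.5. Of 8 fibroblast markers, 4 were above the floor on at least 1 array. Their summed signal was 1598 in monolayer and 2356 in spheroids, of which COL1A1 held 1370 and 1972. DCN, LUM, COL3A1 and PDGFRB were under the floor on both arrays. THY1 (40.5 and 101.9) and FAP (10.9 and 80.0) were above it in spheroids only, and COL1A2 (64.9 and 57.1) in monolayer only. The median log2 difference of the 4 fibroblast genes above the floor was 0.44, beside -0.05 over all genes. The part of such other cell types in the differences below was not tested.

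Neutral lipid is stored in droplets coated by perilipins and is released by the triglyceride lipase ATGL, encoded by PNPLA2. ABHD5 activates that lipase, while G0S2 and HILPDA bind and inhibit it. Released fatty acids enter mitochondria through the carnitine shuttle, whose gate is CPT1A, and are shortened in β-oxidation, of which ACADVL starts the cycle for long chains. PPARA, PPARD and PPARG are nuclear receptors for fatty acids and their derivatives which, paired with a retinoid X receptor, switch on many genes of this pathway. In colon epithelium PPARG and PPARD are the receptors best known, the former with differentiation.

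HILPDA, the hypoxia-inducible droplet protein that inhibits ATGL, was the gene of the 10 with the largest difference, and it was higher in spheroids. The signal of its brightest probe set was 1983 in monolayer and 7558 in spheroids. The other probe set went from 1479 to 5185. Both therefore stood higher on the spheroid array, by 3.81-fold and 3.51-fold, and their log2 differences of 1.93 and 1.81 lay 0.12 apart, less than the SD between probe sets of 1 gene. By its brightest probe set HILPDA ranked at place 25 from the top among 13183 measured genes. Of the 9 measured members, HILPDA alone was at least 2-fold higher, where 2.53% of all measured genes were, and 0 were at least 2-fold lower, where 3.08% of all were. Counts this small say nothing of the group.

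PLIN2, the perilipin that coats droplets in most cells, was higher by its brightest probe set, at 2010 in monolayer and 2943 in spheroids (1.46-fold). A log2 difference of 0.55 is above the 0.41 between probe sets, and 10.6% of measured genes stood higher. Its second probe set went the other way, from 129.0 to 43.0, which is under the floor, so that it was at least 2.06-fold lower. That probe set carries the suffix by which the array's maker marks probes that may also bind other transcripts. The direction of PLIN2 therefore depends on which of the 2 is read.

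**Figure D1:**
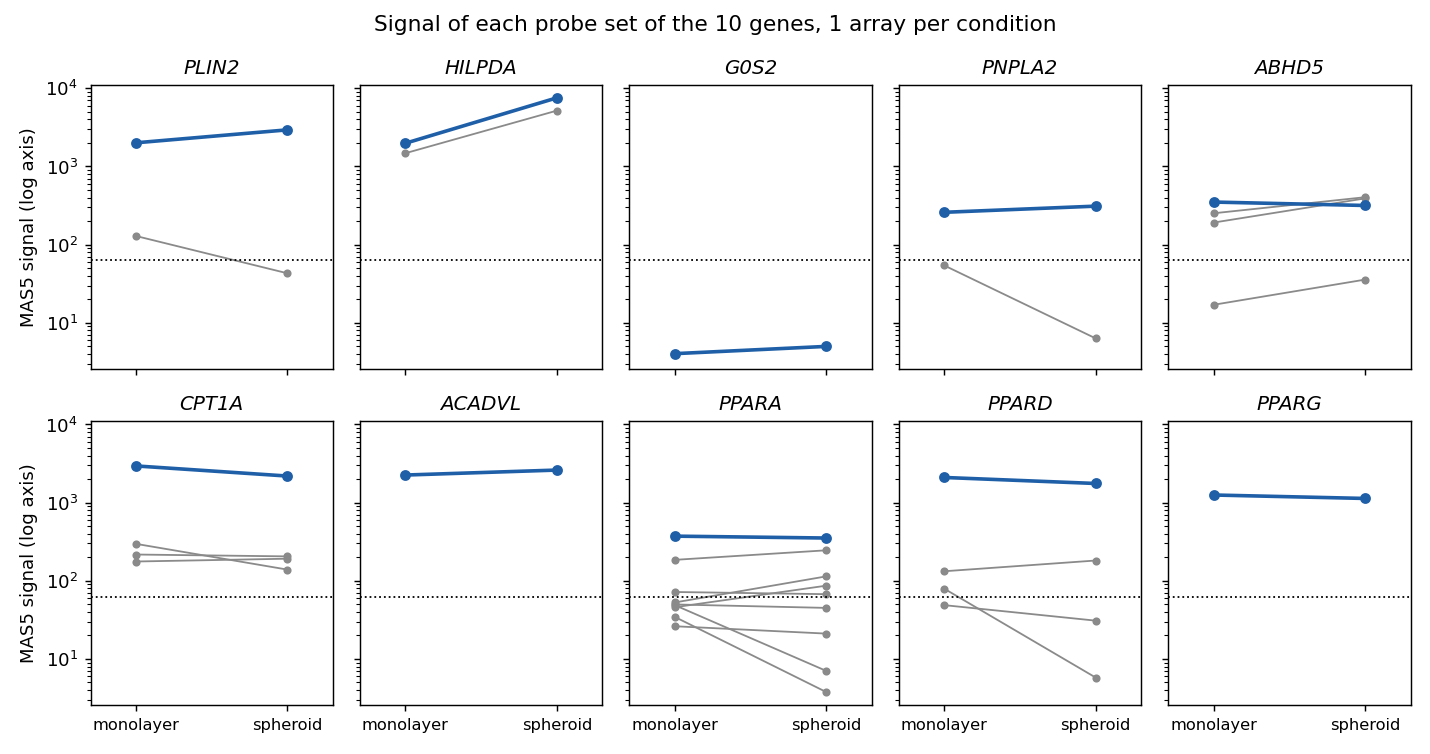
MAS5 signal (log axis) of every probe set of the 10 genes on the monolayer and the spheroid array, 1 array per condition. Blue lines are the brightest probe set of each gene, grey lines the others, and the dotted line is the floor of 62.7. Both HILPDA lines climb, from 1983 to 7558 and from 1479 to 5185, and G0S2 lies far under the floor. Fainter probe sets of PLIN2, ABHD5, PPARA and PPARD part from the brightest, and the fainter PNPLA2 line lies under the floor.

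The lipase and its activator differed less. PNPLA2 went from 259.3 in monolayer to 310.9 in spheroids, 1.20-fold higher, by the 1 probe set above the floor. Its other probe set was under the floor on both arrays. ABHD5, the activator, gave unlike answers by probe set. Its brightest went from 350.7 to 317.1, a log2 difference of -0.15, or 0.10 after scaling to the spike-ins. A second went from 252.0 to 404.5 (0.68), another from 191.6 to 390.6 (1.03), and the last was under the floor on both arrays. So 2 of its 3 measured probe sets were higher in spheroids, 1 of them past 2-fold, while the brightest was not. G0S2, the other ATGL inhibitor, was under the floor on both arrays, at 4.03 and 4.99, and has no fold. It is measured by 1 probe set. Of the 2 inhibitor genes HILPDA thus was the one with a signal above the floor in these cells.

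The windows before the gene starts are shown for PLIN2, whose brightest probe set was higher, for G0S2, which was under the floor, and for CPT1A, the member with the lowest difference. They are the 250 bases before the start in RefSeq, build GRCh38.p14, and each member but HILPDA has at least 1 window there. The window of PLIN2 is chr9:19127493-19127742, minus strand, that of G0S2 chr1:209675162-209675411, plus strand, and that of CPT1A chr11:68844278-68844527, minus strand. Capitals mark matches to ACGTG or GCGTG, the core of the hypoxia response element, or to AGGTCA, the hexamer that PPAR elements repeat, each searched on both strands.
PLIN2: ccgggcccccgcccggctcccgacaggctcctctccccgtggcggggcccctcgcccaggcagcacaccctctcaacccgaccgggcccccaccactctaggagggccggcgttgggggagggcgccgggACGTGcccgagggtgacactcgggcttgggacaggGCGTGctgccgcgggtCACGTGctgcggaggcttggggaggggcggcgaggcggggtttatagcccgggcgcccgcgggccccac
G0S2: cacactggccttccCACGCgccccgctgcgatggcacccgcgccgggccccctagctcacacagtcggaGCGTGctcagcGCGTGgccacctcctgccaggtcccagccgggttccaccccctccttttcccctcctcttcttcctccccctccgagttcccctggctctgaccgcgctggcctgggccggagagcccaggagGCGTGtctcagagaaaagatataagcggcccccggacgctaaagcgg
CPT1A: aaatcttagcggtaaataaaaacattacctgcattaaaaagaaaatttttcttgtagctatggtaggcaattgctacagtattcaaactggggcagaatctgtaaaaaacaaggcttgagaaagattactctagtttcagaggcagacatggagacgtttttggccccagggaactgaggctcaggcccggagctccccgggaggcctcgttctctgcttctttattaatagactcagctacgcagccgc
The PLIN2 window held 4 matches to a hypoxia core, 3 of ACGTG and 1 of GCGTG. The ACGTG matches that begin 69 and 68 bases before the start overlap as the palindrome CACGTG, read on opposite strands. The G0S2 window also held 4, each of GCGTG, and the CPT1A window held 0. Both cores hold the letters CG, and the windows differ in base content. G and C made up 78% of the bases for PLIN2, 69.2% for G0S2 and 44.4% for CPT1A. For the other members with a window, the one with the most hypoxia cores held 3 for PPARD and 2 for ACADVL and PPARG. It held 1 for ABHD5 and PPARA and 0 for PNPLA2. Whether these counts bear on the signals was not tested. Among 18 windows of 9 members, 9 held either core, and 43.2% of 35116 windows of all genes did. ACGTG alone is in 18.5% of all windows and GCGTG in 32.2%. AGGTCA was found in 4 windows, 3 of PPARG and 1 of PNPLA2, and in 12.1% of all windows. Its direct repeat with 1 base between, searched in these exact letters only, was in 0 of the 18 and in 0.0171% of all. At so low a share a count of 0 says nothing of these genes. Windows of the same gene overlap in part. A match is a run of letters and not a shown binding site.

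CPT1A, the carnitine palmitoyltransferase that admits long fatty acids to mitochondria, was the lowest of the 9 measured genes. Its brightest probe set went from 2948 to 2188, 1.35-fold lower, and 81.4% of measured genes stood higher. Of the others, 1 went from 296.8 to 139.0 (2.14-fold lower), 1 from 216.8 to 205.2 (log2 difference -0.08) and 1 from 176.5 to 191.7 (0.12). Only the first 2 differences exceed the SD between probe sets, and 3 of 4 were below 0. ACADVL, the very long chain acyl-CoA dehydrogenase, is measured by 1 probe set, which had 2254 in monolayer and 2610 in spheroids. Its log2 difference of 0.21 is within that SD. The enzyme at the gate and the enzyme that opens the cycle thus lay on opposite sides of 0. After scaling to the spike-ins they were at -0.18 and 0.46.

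The 3 PPAR genes differed by at most 1.19-fold by their brightest probe sets, all in the direction of lower signal in spheroids. PPARD went from 2099 to 1758, a log2 difference of -0.26. PPARG, measured by 1 probe set, went from 1252 to 1131 (-0.15), and PPARA from 372.6 to 352.5 (-0.08). All 3 lie within the SD between probe sets, and scaling to the spike-ins turns PPARG to 0.10 and PPARA to 0.17 and leaves PPARD at -0.01. Fainter probe sets gave other values. For PPARA, 5 of 9 probe sets were above the floor on at least 1 array, 3 of them higher and 2 lower. Another probe set of PPARA went from 185.3 to 245.5 (0.41), and 2 were above the floor in spheroids only, from 52.8 to 113.9 and from 45.9 to 86.6. For PPARD a second probe set went from 132.4 to 181.7 (0.46) and another from 79.3 to 5.78, under the floor. No direction common to the probe sets of PPARA or of PPARD was seen.

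**Figure D2:**
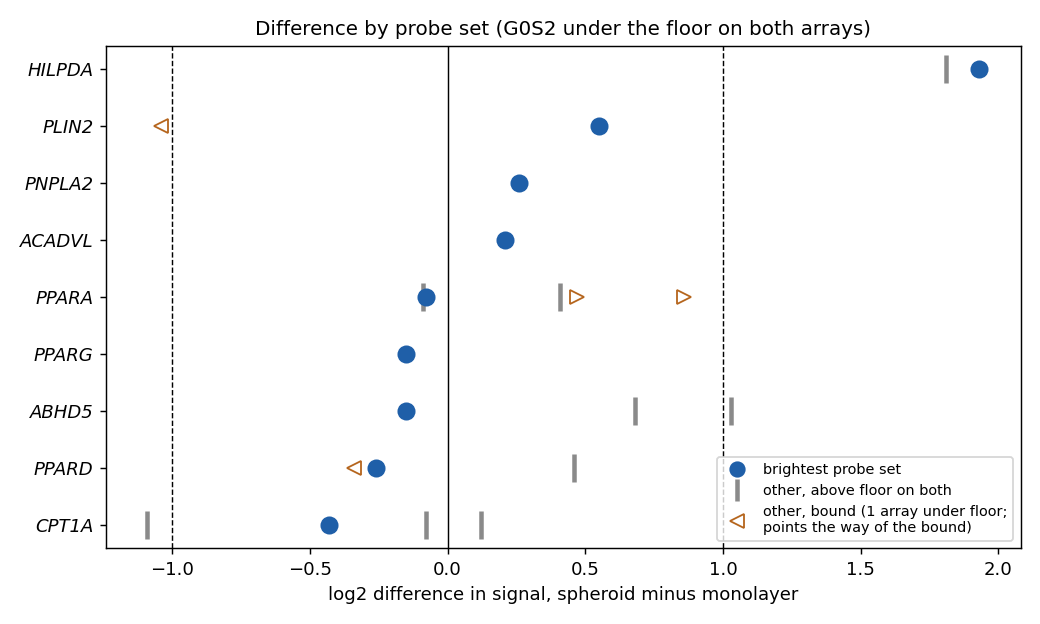
Log2 difference in signal, spheroid minus monolayer, for the 9 measured genes, 1 array per condition. Blue dots are brightest probe sets, grey ticks the remaining ones with both signals above the floor, and open triangles bounds. Dashed lines mark 2-fold. HILPDA at 1.93 and 1.81 is past the right line, while PLIN2, ABHD5 and CPT1A each have a second probe set past a line that their brightest does not reach.

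Over all 22 member probe sets above the floor on at least 1 array, 3 were at least 2-fold higher, both of HILPDA and 1 of ABHD5, where 3.66% of such probe sets on the array were. A further 2 were at least 2-fold lower, 1 of CPT1A and 1 of PLIN2, where 3.14% were. The remaining 8 of the 30 were under the floor on both arrays. Probe sets of 1 gene share its RNA and are not independent. By brightest probe sets 4 of the 9 genes were above 0 and 5 below, with a median log2 difference of -0.08 beside -0.05 over all measured genes.

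**Figure D3:**
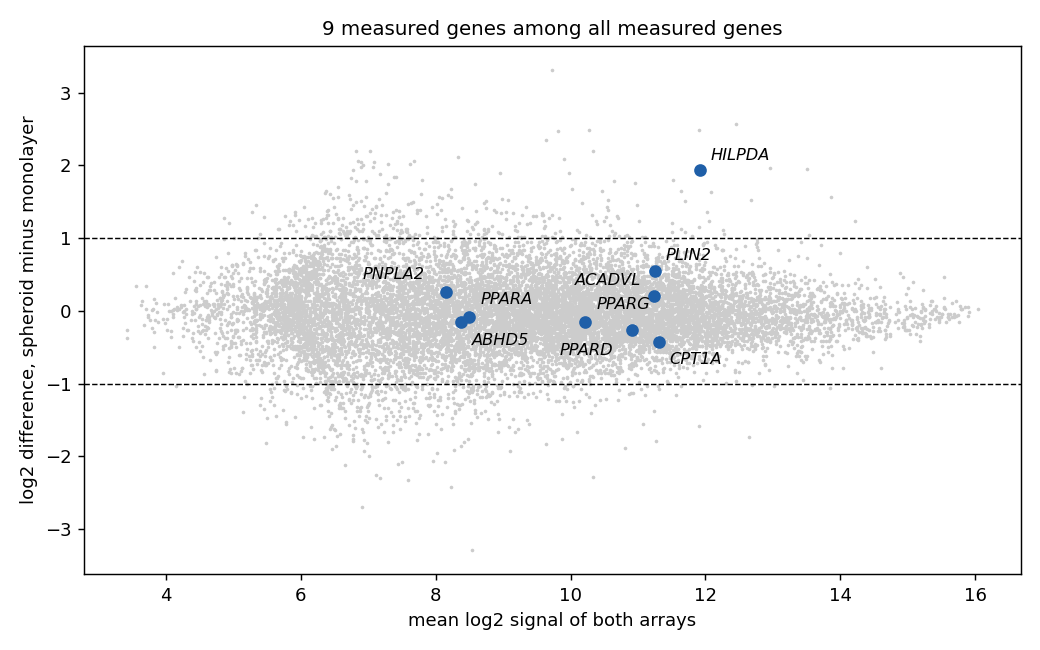
Log2 difference, spheroid minus monolayer, against the mean log2 signal of both arrays for 13183 measured genes (grey) and the 9 measured members (blue). Dashed lines mark 2-fold. HILPDA stands at 1.93 above the upper line and the other 8 lie inside the lines among the mass of genes.

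Other genes of the same pathways were read from lists by role, in which the members are included, the lists share some genes, and genes without a probe set of their own are not counted as measured. List counts past 2-fold stand beside 2.53% higher and 3.08% lower among all measured genes. Among droplet coat proteins and factors that form droplets, 11 of 17 genes were measured, 0 were at least 2-fold higher and 1 was lower. That gene was FITM2, which helps droplets bud from the endoplasmic reticulum, at 720.1 in monolayer and 348.6 in spheroids (2.07-fold lower), although another of its probe sets was at 0.85, and scaled to the spike-ins it was not past 2-fold. PLIN3, a perilipin that also serves as a sorting protein, went from 5616 to 3409 (-0.72), opposite to the brightest probe set of PLIN2. RAB18, a GTPase found on droplets, went from 3322 to 4927, with all 5 of its probe sets between 0.28 and 1.40. PLIN5, the perilipin of oxidative tissue, was at 137.2 and 128.0, with a second probe set at -0.74, and PLIN1, PLIN4, CIDEA and CIDEB were under the floor on both arrays. The median of the list was -0.04, next to the -0.05 of all genes, and 0.20 after scaling to the spike-ins.

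In the lipolysis list 9 of 11 genes were measured and 2 were at least 2-fold higher, HILPDA and PNPLA3. PNPLA3, a droplet protein related to ATGL, went from 298.1 to 862.0 (2.89-fold higher), and its second probe set was at 1.00. The monoacylglycerol lipase MGLL was at -0.46, with its second probe set at -1.34, and the lysosomal lipase LIPA at 0.12, while LIPE, the hormone-sensitive lipase, was under the floor on both arrays. The list's median was 0.12.

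Genes that build triglyceride or steryl esters were mostly lower in spheroids. Of 13 measured genes of 18, 11 were below 0, among them the steryl ester enzyme SOAT1 at -0.23 (2 of its 3 probe sets were higher), and the median was -0.44. The other 2, LPIN1 and the acyltransferase GPAM at 0.36, were higher. After scaling to the spike-ins 8 of 13 were below 0 and the median was -0.19. When probe sets were summarised by their median 8 of 13 were below 0. DGAT2 and DGAT1, the enzymes of the last step, were lower. DGAT2 had 207.1 in monolayer and 41.0, a signal under the floor, in spheroids, and was at least 3.30-fold lower. Its second probe set was at -0.27, and by the median of both it was not past 2-fold. DGAT1 went from 820.3 to 447.0 (1.84-fold lower). LPIN1, a phosphatidate phosphatase that also acts as a coactivator of PPARs, was the list's only gene at least 2-fold higher, from 578.8 to 1860 (3.21-fold), with its 3 probe sets between 0.58 and 1.68.

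Of 21 genes of fatty acid uptake, binding and activation 14 were measured, 1 was at least 2-fold higher and 2 were lower, and these 3 act on other substrates or not on fatty acids alone. ACSS2, which activates acetate, went from 522.9 to 1178 (2.25-fold higher). SLC27A5, known for joining bile acids to coenzyme A, went from 611.6 to 298.9, and FABP6, the ileal bile acid binding protein, from 172.1 to 84.2. The FABP6 signal in spheroids is below 89.2, a floor taken from olfactory receptor probe sets, and neither of these was past 2-fold when scaled to the spike-ins. The transporter SLC27A4 was at -0.67 and SLC27A1 at -0.48, while ACSL1 and ACSL4, which activate long fatty acids, were at 0.20 and 0.16 by their brightest probe sets and reached 0.83 and 1.12 by others. Both measured probe sets of ACSL1 and all 3 of ACSL4 were higher, and with probe sets summarised by their median 2 genes of the list were at least 2-fold higher. CD36, FABP1 and FABP2 were under the floor on both arrays.

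**Figure D4:**
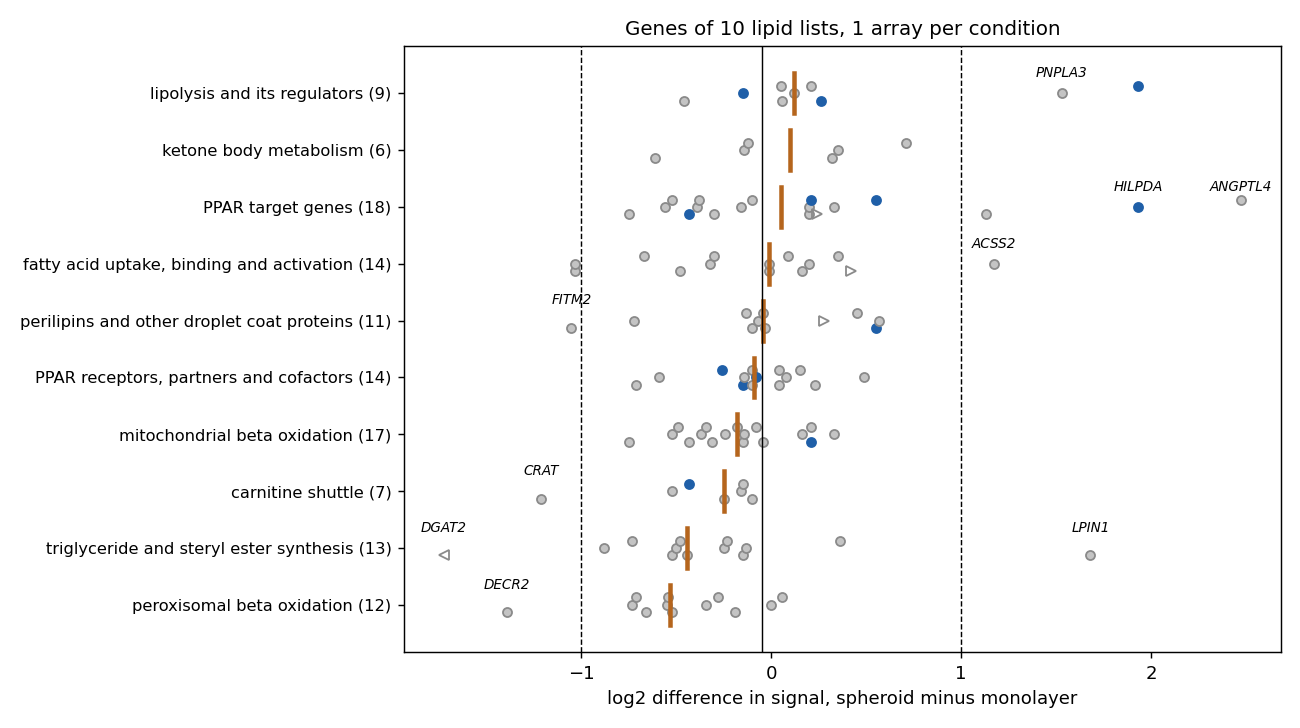
Log2 difference, spheroid minus monolayer, of the genes in 10 lipid lists, with the number measured in parentheses. Dots are genes (blue for members), open triangles bounds, orange bars list medians, the solid line the median of all genes and dashed lines 2-fold. Peroxisomal, triglyceride and carnitine lists lie farthest left, with medians of -0.53, -0.44 and -0.25, and ANGPTL4, HILPDA, LPIN1 and PNPLA3 stand to the right.

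Genes of fatty acid oxidation were mostly lower by small amounts. In the carnitine shuttle list 7 of 9 genes were measured and all 7 were below 0, with a median of -0.25. The 7 include ACACB at -0.15, which is not a part of the shuttle but makes malonyl-CoA, an inhibitor of CPT1A. CRAT, which moves acetyl groups onto carnitine, was the only 1 at least 2-fold lower, from 1230 to 533.2 (2.31-fold), and its other probe set was at -1.66. Scaled to the spike-ins it was not past 2-fold. CPT2, the partner of CPT1A on the inner membrane, was at -0.52 and the carrier SLC25A20 at -0.16. In mitochondrial β-oxidation 17 of 19 genes were measured, 13 were below 0 and 0 were past 2-fold, with a median of -0.18. The trifunctional protein subunits HADHA and HADHB went from 3861 to 2302 and from 7042 to 5001, and all 3 probe sets of HADHA were lower. ACADM, the medium chain dehydrogenase, was at 0.33, on the same side as ACADVL. In the peroxisomal list 12 of 15 genes were measured and 10 were below 0, with a median of -0.53. That median was -0.28 after scaling to the spike-ins and also at the 75th percentile floor, where 9 were measured and 0 were past 2-fold. DECR2, a reductase for unsaturated chains, was 2.62-fold lower, from 262.0 to 100.1. ACOX3 and ACOX2, oxidases of branched chains, were at -0.73 and -0.55, the racemase AMACR at -0.71 with a spheroid signal of 76.3, under the 89.2 from olfactory receptors, and the thiolase ACAA1 at 0.06. Scaled to the spike-ins, 4 of 7, 7 of 17 and 9 of 12 genes of these lists were below 0. The median of mitochondrial β-oxidation was then 0.07, beside 0.18 over all genes. As reported, 7 of 7, 12 of 17 and 10 of 12 genes were under the median of all genes. Spike-in scaling shifts the genes and that median nearly alike, so it could hardly change these counts and is no check of them.

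Of 20 PPAR receptors, partners and cofactors 14 were measured and 0 were past 2-fold in either direction. Their median was -0.09, or 0.04 over the 11 that are not members, and with the receptors it was 0.16 after scaling to the spike-ins. PPARGC1B, a coactivator of mitochondrial genes, went from 746.2 to 455.7 (1.64-fold lower) with both probe sets lower, and RXRB, a retinoid X receptor, from 896.9 to 595.1 (-0.59). RXRA was at -0.14 and NCOA2, a coactivator of nuclear receptors, at 0.49, while PPARGC1A and RXRG were under the floor on both arrays. Among known PPAR target genes 18 of 27 were measured, 3 were at least 2-fold higher and 0 were lower, where 2.53% and 3.08% of all measured genes were. ANGPTL4, a secreted lipase inhibitor that hypoxia also induces, went from 384.8 to 2127 (5.53-fold higher), with its second probe set at 2.16. HILPDA was the next and KRT20, a keratin of differentiated colon cells, the last, from 99.6 to 218.4 (2.19-fold). Both KRT20 signals lie under the floor at the 75th percentile, 386.0, with which 2 of 13 measured genes of the list were at least 2-fold higher. PDK4, a kinase that spares glucose and a widely used readout of PPARs, was lower, from 381.0 to 257.8 (-0.56), as were CPT1A, CPT2 and HADHA. Of the 18 genes 9 were above 0 and 9 below. Their median was 0.05, or -0.13 without the 4 members, and it was -0.03 with median scaling. The list did not stand on either side of 0.

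Across the processing alternatives HILPDA stayed between 1.85 and 2.18 and CPT1A between -1.09 and -0.18. All alternatives use the same arrays. The brightest signals of both genes lie above every floor, and scaling by a factor shifts all genes nearly alike, so these alternatives could move them little. The probe set of CPT1A at 0.12 was not the value under either choice of probe set. PNPLA2 ranged between 0.19 and 0.51 and ACADVL between 0.14 and 0.46, but each has 1 measured probe set, so that the choice of probe set could not move them. The signs of PLIN2, ABHD5, PPARA, PPARD and PPARG each changed under at least 1 alternative.

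**Figure D5:**
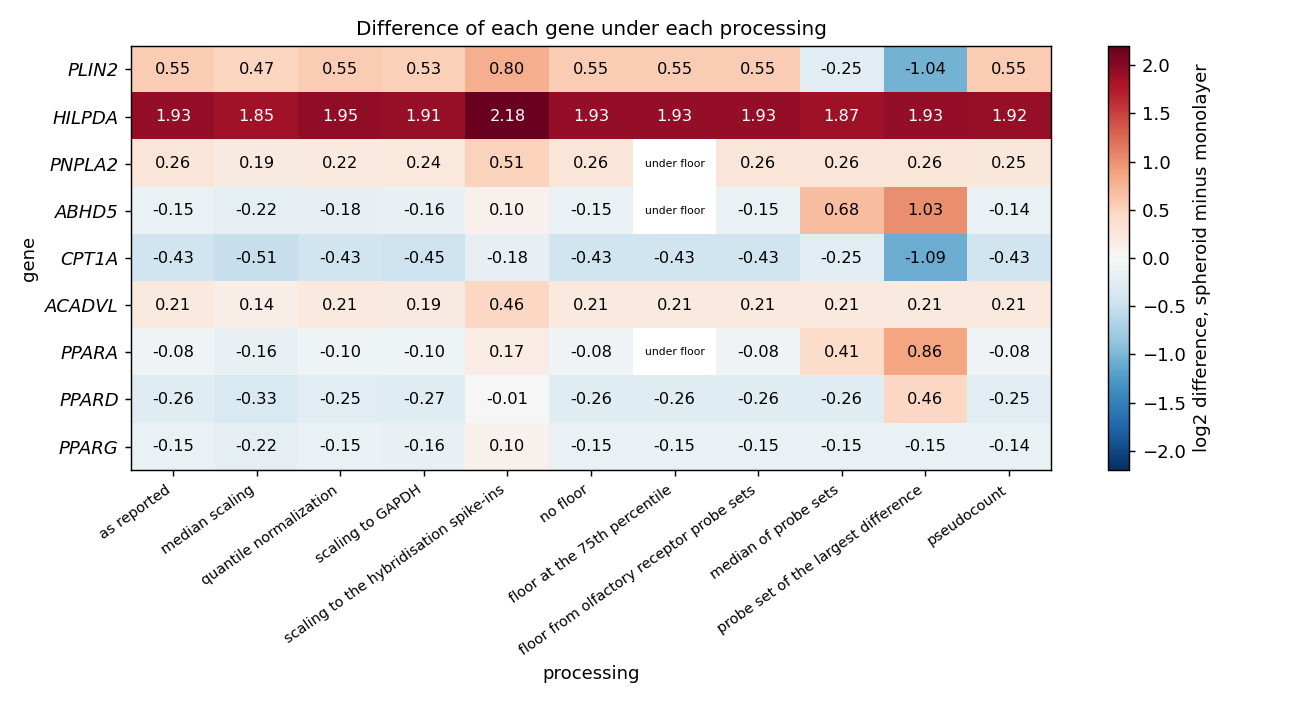
Log2 difference, spheroid minus monolayer, of the 9 measured genes (rows) under the reported processing and 10 alternatives (columns), with the value in each cell and red for higher and blue for lower in spheroids. White cells marked under floor have no value. HILPDA stays at 1.85 or above, and PLIN2 turns to -1.04 and ABHD5 to 1.03 when the probe set of the largest difference is read.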

How the data were processed

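Total RNA of HT-29 monolayer and of HT-29 spheroids was measured on 1 Human Genome U133 Plus 2.0 array each. The authors used Affymetrix Expression Console to compute MAS5 signals, and these were deposited as intensity values without a log. Both arrays have a trimmed mean of 500.1 with 2% trimmed at each end. According to the methods arrays were run in duplicate, and those analysed here are 1 for each condition. No detection calls were used.

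Computation was done in Python 3.11.15 with numpy 2.4.6, pandas 2.3.3 and scipy 1.17.1, and plots were drawn with matplotlib 3.10.9. Of 54675 probe sets the platform annotation gives 41097 a single gene, 1801 several and 11777 are not named here. Gene numbers of 41043 were matched to current RefSeq symbols (GRCh38.p14). The floor was the 50th percentile of all signals. For each of 19775 genes the brightest probe set, by mean log2 signal, was used, and 11555 genes exceeded the floor on both arrays and 1628 on 1. The threshold was 2-fold, after the methods. Genes named are all members, list genes past 2-fold and up to 4 more per list with the largest differences. Further list genes were added with their values known. The members and lists were chosen with earlier results of these data known. The computation was tested on simulated data. Alternatives were 4 scalings, 3 floors including none, 2 choices of probe set, a pseudocount of 15.9 and a 3-fold threshold.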

Additional observations from a re-analysis of the deposited data

How the results depend on the processing

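With 1 array per condition no replicate could be left out, and no paired analysis was possible because each condition has 1 array and no test was run. The count of members at least 2-fold higher was 1 and that of members lower 0 under every alternative but that of reading the probe set that differed most, which gave 2 higher (HILPDA and ABHD5) and 2 lower (PLIN2 and CPT1A). That reading raises the counts over all genes too. Of 13261 genes 791 were then at least 2-fold higher and 716 lower, beside 334 and 406 of 13183 as reported. With the 3-fold threshold the counts of members were also 1 and 0. The median log2 difference of the members, -0.08 as reported, moved to 0.17 under spike-in scaling (all genes 0.18), to 0.07 without a floor, where G0S2 is counted too, to 0.21 when a gene's probe sets were summarised by their median and to 0.26 with the probe set that differed most. It was between -0.16 and 0.03 under the others. The floor at the 75th percentile, 386.0, left 6 members measured, without PNPLA2, ABHD5 and PPARA. Of all measured genes past 2-fold 45.1% were higher in spheroids as reported, and 78.7% with spike-in scaling, 34.0% with median scaling and 57.5% at the 75th percentile floor. Among the values of single members and of the lists, 331 stayed and 76 moved. A single gene counted as moved past the SD between probe sets of 0.41, a list median past that SD over the square root of its number of genes, and a count past 1.5 times. Signals near the floor, such as the fainter probe sets of PPARA, limit what can be said of their differences.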

Other observations

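Ketone body genes, which follow fatty acid oxidation, formed 1 of the 10 lists plotted above and are described here. Of 10 genes 6 were measured and 0 were past 2-fold, with 3 above 0 and 3 below. BDH2, a cytosolic dehydrogenase, went from 1767 in monolayer to 2895 in spheroids (1.64-fold higher), with both probe sets higher at 0.71 and 1.27. BDH1, the mitochondrial β-hydroxybutyrate dehydrogenase, went from 472.6 to 308.9 (1.53-fold lower), with both probe sets lower. OXCT1, which returns ketone bodies to acetyl-CoA formation, was at -0.12. The list's median was 0.10, but -0.13 under the 75th percentile floor, where 4 genes were measured.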
